A study of Mus musculus with 4 samples.

Results

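Alveolar type 1 cells are the thin, flat epithelial cells that cover most of the gas-exchange surface of the lung and share a basement membrane with the capillary endothelium. They arise in development from distal epithelial progenitors, and in the adult from alveolar type 2 cells, the surfactant-producing cells of the alveolus. A set of 10 genes that mark them was taken by name from the deposited expression table: Ager, Hopx, Aqp5, Pdpn, Rtkn2, Akap5, Clic5, Emp2, Igfbp2 and Spock2. All 10 names matched 1 row each of the 21931 genes in the table, and all 10 passed the filter on low counts.

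The series asks which genes differ in lung when Dnah9 is knocked out, a gene whose product is a motor subunit of the dynein that beats motile cilia. Whole lung tissue of untreated mice of strain C57BL6 at 2 months of age was profiled by RNA sequencing. There were 2 libraries of Dnah9 knockout genotype, 1 library of the genotype written as Hez (its meaning is not given, and the name is used unchanged) and 1 wild-type library. The labels do not give the deleted part of Dnah9, whether animals were pooled, or whether libraries shared a litter or a batch. Since Hez and wild type have no replicate, the spread behind the tests against either of them came from the knockout pair, moderated over all genes. Where Hez and wild type form 1 group, the difference between them enters the spread as well. The p-values measure only how far these libraries scatter, which could be technical scatter.

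Total read counts lay between 15860478 and 16553480 per library. As a check of the labels, Dnah9 stood at 14.8 and 15.98 CPM (read counts relative to library size after scaling by the trimmed mean of M-values, TMM) in knockout libraries 1 and 2, at 25.4 CPM in Hez and at 56.6 CPM in wild type. The table gives reads per gene, so it does not show which exons the remaining Dnah9 reads cover. Genes of other lung cell types were present in every library, since this is whole tissue. Basal cell markers of the large airways summed to 3.26 to 5.74 CPM over 6 genes. In bulk tissue, fewer cells of a type and less RNA per cell cannot be told apart, and this holds for every value below.

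The members together took 0.604% and 0.621% of all reads in knockout libraries 1 and 2, 0.664% in Hez and 0.586% in wild type. Per length of transcript they spanned a wide range. Ager was far above the rest, with a mean of 735 FPKM over the 4 libraries (702 to 780), which placed it at rank 22 to 26 of all genes in the table. Emp2 followed at 177 FPKM (168 to 192). Clic5 at 128 FPKM (121 to 139) and Hopx at 126 FPKM (108 to 133) overlapped in range. Akap5 at 83.9 FPKM (76.8 to 91.3), Aqp5 at 82.0 (76.2 to 86.8), Igfbp2 at 74.8 (60.5 to 98.1) and Spock2 at 72.5 (66.1 to 80.1) also overlapped with one another. Pdpn at 49.7 FPKM (48.1 to 52.6) and Rtkn2 at 42.3 FPKM (35.6 to 48.4) were the least abundant, with ranges that touched, and the lowest rank any member reached was 1188. All 10 members were thus detected in every library.

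No member overlapped another gene of the table on either strand. GENCODE M21, on another build, annotates an antisense gene over 2 members, Hopxos over Hopx and Gm16212 over Rtkn2, which were not analysed here. The strand setting of the counts is not stated, so reads from these antisense genes cannot be told apart from those of Hopx and Rtkn2, and the values of both are uncertain to that extent. The nearest gene was Rnf5, 154 bases from Ager on the opposite strand.

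**Figure D1:**
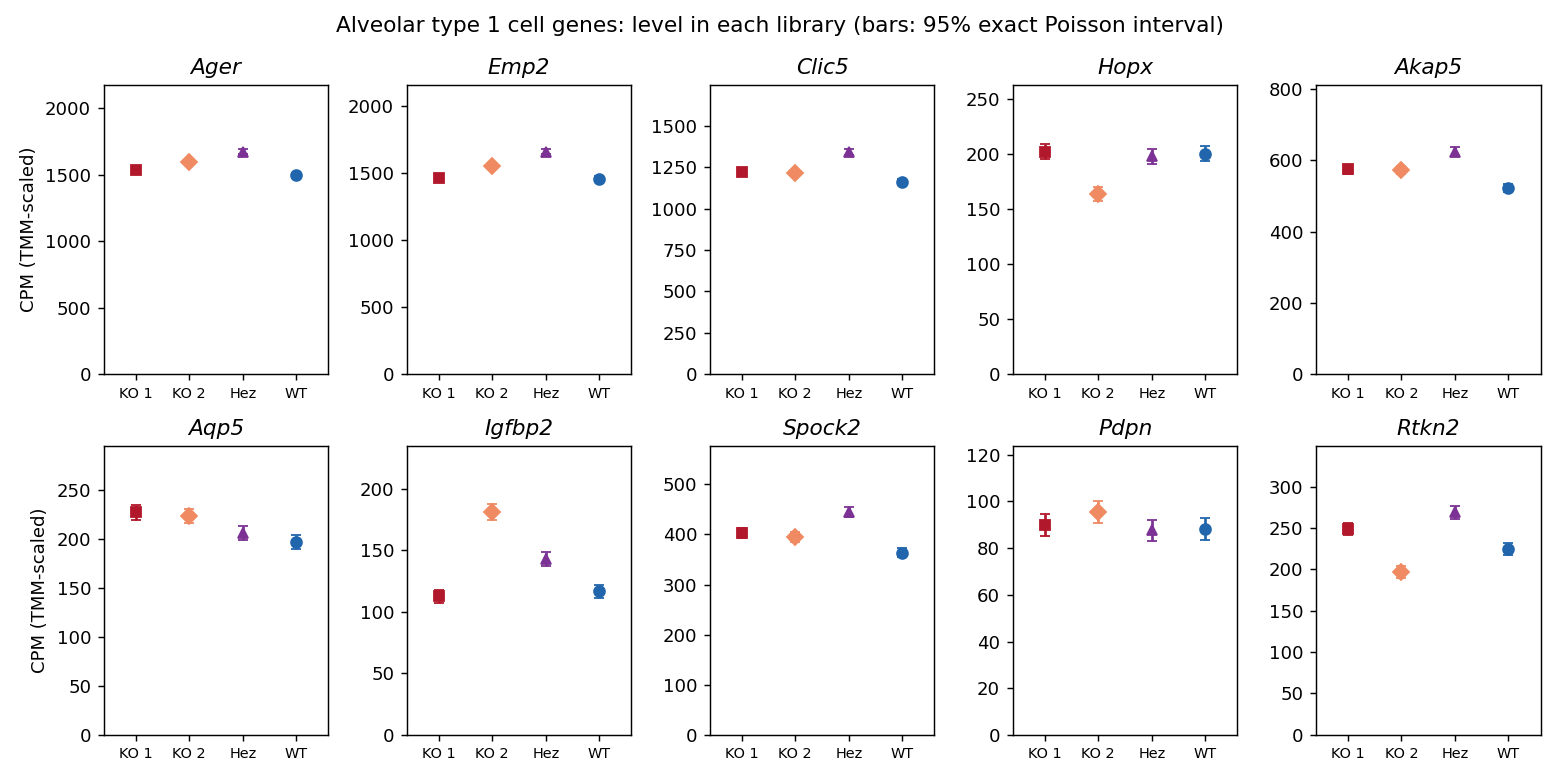
Level of each of the 10 genes in TMM-scaled CPM (vertical axes, each from 0) in Dnah9 knockout libraries 1 and 2 (KO 1, KO 2), Hez and wild type (WT), with 95% exact Poisson intervals that cover counting error only. Ager lay at 1532 and 1597 CPM in the knockout libraries, 1673 in Hez and 1495 in wild type, while Igfbp2 differed most between the knockout libraries, at 113 and 181 CPM.

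The first question was whether these genes differ between Dnah9 knockout and wild-type lung. None of the 10 passed the threshold in edgeR's quasi-likelihood test (Benjamini-Hochberg adjusted p below 0.05 over 15055 genes), where 0.0531% of all tested genes did so (0.0133% higher and 0.0399% lower). None had an unadjusted p below 0.05 either, against 5.18% of all tested genes, and DESeq2 and limma-voom also called 0 of 10. Of the 10 log2 folds 8 were above 0, against 51.1% of all tested genes, and their median was 0.07, against 0.0045 over all tested genes. Over the 2703 tested genes at or above the mean level of Pdpn (90.2 CPM), the lowest member in CPM, the median was 0.03. The edgeR adjusted p was 0.996 for 9 members and 0.998 for Rtkn2 (n = 2 knockout libraries against 1 wild-type library).

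Ager (ENSMUSG00000015452, GRCm39 chromosome 17, 34816836 to 34819910, plus strand) encodes RAGE, a receptor of the immunoglobulin superfamily that type 1 cells carry on their basal side. It had 1532 and 1597 CPM in the knockout libraries, 1673 in Hez and 1495 in wild type. Both knockout libraries lay above wild type and below Hez. Its fold for knockout over wild type was 1.05, with a 95% interval of 0.938 to 1.17.

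Emp2 (ENSMUSG00000022505, GRCm39 chromosome 16, 10099613 to 10131832, minus strand), a small membrane protein of the Pmp22 family, had 1464 and 1556 CPM in the knockout libraries, 1659 in Hez and 1457 in wild type. Knockout library 1 stood beside wild type and knockout library 2 midway to Hez. The fold over wild type was 1.04 (0.924 to 1.16).

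Clic5 (ENSMUSG00000023959, GRCm39 chromosome 17, 44445659 to 44591059, plus strand), a protein of the chloride intracellular channel family that associates with ezrin and the cortical actin skeleton, had 1225 and 1215 CPM in the knockout libraries, 1345 in Hez and 1160.4 in wild type. The knockout libraries were close to each other and lay between Hez and wild type. The fold over wild type was 1.05 (0.941 to 1.17).

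Akap5 (ENSMUSG00000021057, GRCm39 chromosome 12, 76371665 to 76380927, plus strand) anchors protein kinase A and other signalling enzymes at the plasma membrane. It had 574 and 573 CPM in the knockout libraries, 624 in Hez and 521 in wild type, so the knockout pair again lay between the others. The fold over wild type was 1.10 (0.968 to 1.25).

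Spock2 (ENSMUSG00000058297, GRCm39 chromosome 10, 59942041 to 59971020, plus strand) encodes testican-2, a secreted proteoglycan of the extracellular matrix. It had 403 and 395 CPM in the knockout libraries, 444 in Hez and 364 in wild type. The order of the libraries was the same as for Akap5, and the fold over wild type was 1.10 (0.955 to 1.26).

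Aqp5 (ENSMUSG00000044217, GRCm39 chromosome 15, 99488663 to 99492710, plus strand), the apical water channel of type 1 cells, had 227 and 223 CPM in the knockout libraries, 206 in Hez and 197 in wild type. It was 1 of 2 members, with Pdpn, for which both knockout libraries lay above both other libraries, which 17.5% of all tested genes also did. The fold over wild type was 1.15 (0.982 to 1.33), with an unadjusted p of 0.0758 and an adjusted p of 0.996 in edgeR. Aqp5 is also made in airway submucosal glands, whose 6 markers summed to 597 and 629 CPM in the knockout libraries, 437 in Hez and 717 in wild type. Most of that sum was Lyz1 (407 and 333, 252 and 288 CPM in the same order) and Bpifb1 (103 and 231, 119 and 297 CPM). Sox10, another of these markers, had 0.86 and 0.94, 1.15 and 0.99 CPM. The part of gland cells in the Aqp5 level was not tested.

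Pdpn (ENSMUSG00000028583, GRCm39 chromosome 4, 142994001 to 143026134, minus strand), the mucin-type membrane protein podoplanin that is also known as T1-alpha, had 89.9 and 95.3 CPM in the knockout libraries, 87.6 in Hez and 88.2 in wild type. It varied least of the 10, by 1.09-fold between the highest and the lowest library, and its fold over wild type was 1.05 (0.892 to 1.24). Podoplanin is also made by lymphatic endothelium and mesothelium. Lymphatic markers (7 genes) summed to 481 and 378 CPM in the knockout libraries, 384 in Hez and 401 in wild type, and mesothelial markers (8 genes) to 362 and 278, 413 and 379 CPM in the same order. Lyve1 was the largest single part of the lymphatic sum, with 260 and 171, 200 and 211 CPM. Krt19, also listed here as an alveolar epithelial marker, was the largest of the mesothelial sum, with 142 and 130, 112 and 164 CPM. Krt19 was lowest in Hez, whereas Hez was the highest library for 6 of the 8 mesothelial markers. The part of these cells in the Pdpn level was not tested.

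The 3 remaining members differed between the knockout libraries themselves. Hopx (ENSMUSG00000059325, GRCm39 chromosome 5, 77234835 to 77262968, minus strand), an atypical homeodomain protein that does not bind DNA, had 202 and 164 CPM in the knockout libraries, 198 in Hez and 200.3 in wild type. Knockout library 1, Hez and wild type were together and knockout library 2 was lower by 0.31 on the log2 scale than knockout library 1. Hopx is also a gene of heart muscle, which mouse lung holds in the walls of its pulmonary veins, and 11 cardiac markers summed to 758 and 888 CPM in the knockout libraries, 1150.04 in Hez and 1192 in wild type. The cardiac sum was lower in both knockout libraries and Hopx in one of them, and the part of heart muscle in the Hopx level was not tested.

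Rtkn2 (ENSMUSG00000037846, GRCm39 chromosome 10, 67815400 to 67895570, plus strand) had 249 and 197 CPM in the knockout libraries, 269 in Hez and 224 in wild type. Wild type lay between the knockout libraries, and the fold over wild type was 0.993 (0.795 to 1.24).

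Igfbp2 (ENSMUSG00000039323, GRCm39 chromosome 1, 72863662 to 72891633, plus strand), a secreted binding protein of insulin-like growth factors that marks mature type 1 cells in mouse, had 113 and 181 CPM in the knockout libraries, 143 in Hez and 117 in wild type. Both other libraries lay between the knockout libraries, which differed by 1.61-fold. Its fold over wild type was 1.26, and the interval of 0.864 to 1.83 was the widest of the 10. Among 2703 tested genes at or above the mean level of Pdpn (90.2 CPM), 0.703% differed as much between the knockout libraries as Igfbp2 did, 4.22% as much as Rtkn2 and 5.25% as much as Hopx. These 3 genes were singled out after their values were seen. The other 7 members differed by less than 0.1 on the log2 scale between the knockout libraries. For Hopx, Rtkn2 and Igfbp2 the sign of the difference from wild type depended on knockout library 2. With knockout library 1 alone it was 0.01, 0.15 and -0.05 on the log2 scale, and with knockout library 2 alone -0.29, -0.19 and 0.63.

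**Figure D2:**
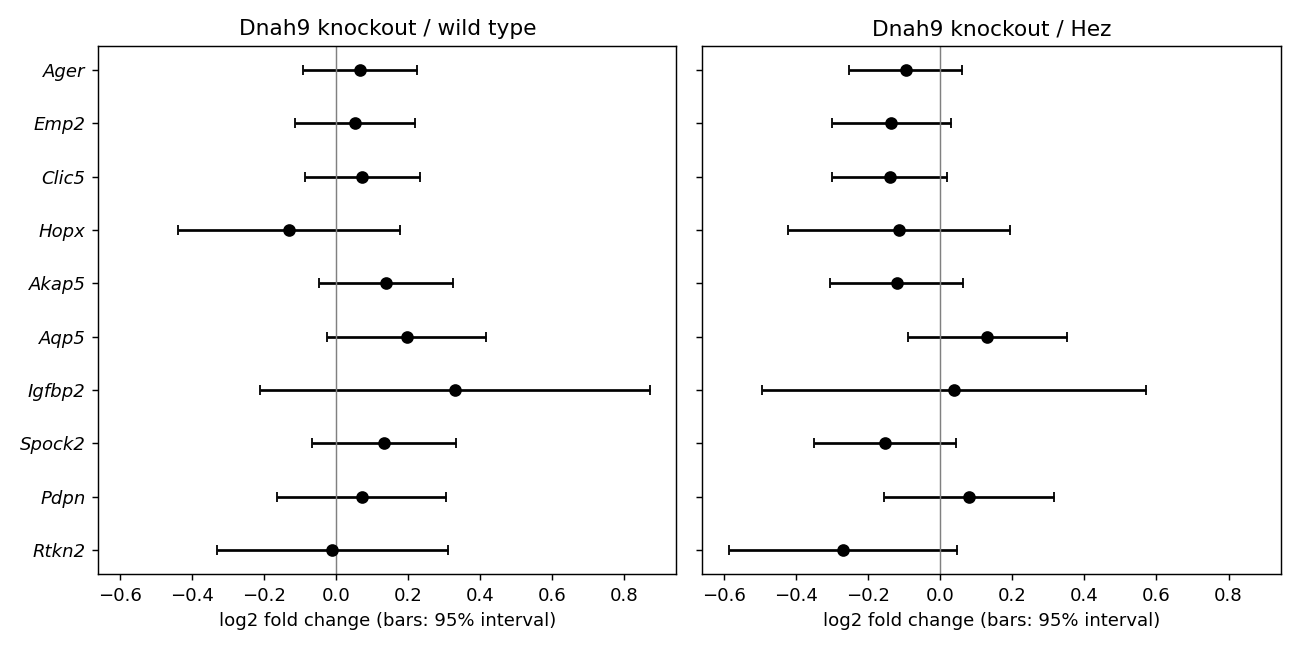
Log2 fold change of each gene (horizontal axis) with its 95% interval from edgeR, for Dnah9 knockout over wild type (left) and over Hez (right), with genes ordered by mean FPKM from the top. Every interval includes 0, and the widest is that of Igfbp2, from -0.21 to 0.87 against wild type.

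A second comparison set the knockout libraries against the Hez library. Here 0 of 10 members passed in edgeR (0.00664% of all tested genes did), with 0 of 10 at an unadjusted p below 0.05, against 4.61% of all genes, and 0 of 10 in DESeq2 and limma-voom. The edgeR adjusted p was 0.9997 for all 10 (n = 2 against 1). Of the 10 log2 folds 3 were above 0, against 52.5% of all tested genes, and 7 were below, with a median of -0.12, against 0.0099 over all tested genes. Over the 2703 genes at or above the level of Pdpn the median was -0.0068. The smallest p was that of Clic5, at -0.14 (95% interval -0.30 to 0.02, unadjusted p = 0.0754), followed by Rtkn2 at -0.27 (-0.59 to 0.05, unadjusted p = 0.0842) and Emp2 at -0.14 (-0.30 to 0.03, unadjusted p = 0.0929), all in edgeR. For 6 members both knockout libraries lay below Hez, against 31.9% of all tested genes, and for 7 both lay above wild type, against 33%. This comparison and the one with wild type share the knockout libraries. With wild type and Hez as 1 group of 2 libraries, 0 of 10 passed in edgeR (0.0133% of all genes), 0 passed without adjustment, against 5.07%, and 4 of 10 log2 folds were above 0, against 50.3%. The members had a median of -0.02. For 0 members were both knockout libraries below both other libraries, against 16.3% of all tested genes.

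The Hez library was also set beside wild type, with no test since each is 1 library. Past a fold of 1.5 there were 0 members, against 9.64% of all tested genes (2.8% higher and 6.84% lower in Hez). Hez lay above wild type for 8 members, against 49.5% of all tested genes. Hez was the highest of the 4 libraries for 6 members (Ager, Rtkn2, Akap5, Clic5, Emp2 and Spock2), against 23.9% of all tested genes. Wild type was the lowest for 6 members, against 24.2%, and both held for 5 (Ager, Akap5, Clic5, Emp2 and Spock2), against 7.52%. The median log2 difference of Hez from wild type was 0.20 over the members and -0.0022 over all tested genes. It was 0.04 over the 2703 genes at or above the level of Pdpn.

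Igfbp2 and Spock2 had the largest differences of Hez from wild type, 0.29 on the log2 scale each, with 95% intervals of 0.20 to 0.38 and 0.24 to 0.34. Akap5 and Rtkn2 stood at 0.26 each (0.22 to 0.30 and 0.20 to 0.32), Clic5 at 0.21 (0.18 to 0.24), Emp2 at 0.19 (0.16 to 0.21) and Ager at 0.16 (0.14 to 0.19). Aqp5 at 0.07 (-0.01 to 0.14), Pdpn at -0.01 (-0.12 to 0.10) and Hopx at -0.02 (-0.09 to 0.05) had intervals that include 0. These are exact binomial intervals and cover counting error only, not the spread between animals. Among the 2703 genes at or above the level of Pdpn, the middle 80% of Hez differences from wild type ran from -0.11 to 0.18, and 6 members lay above that range. In the same genes the middle 80% of differences between the knockout libraries ran from -0.18 to 0.14, so 2 libraries of 1 genotype differed about as widely as Hez and wild type did.

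**Figure D3:**
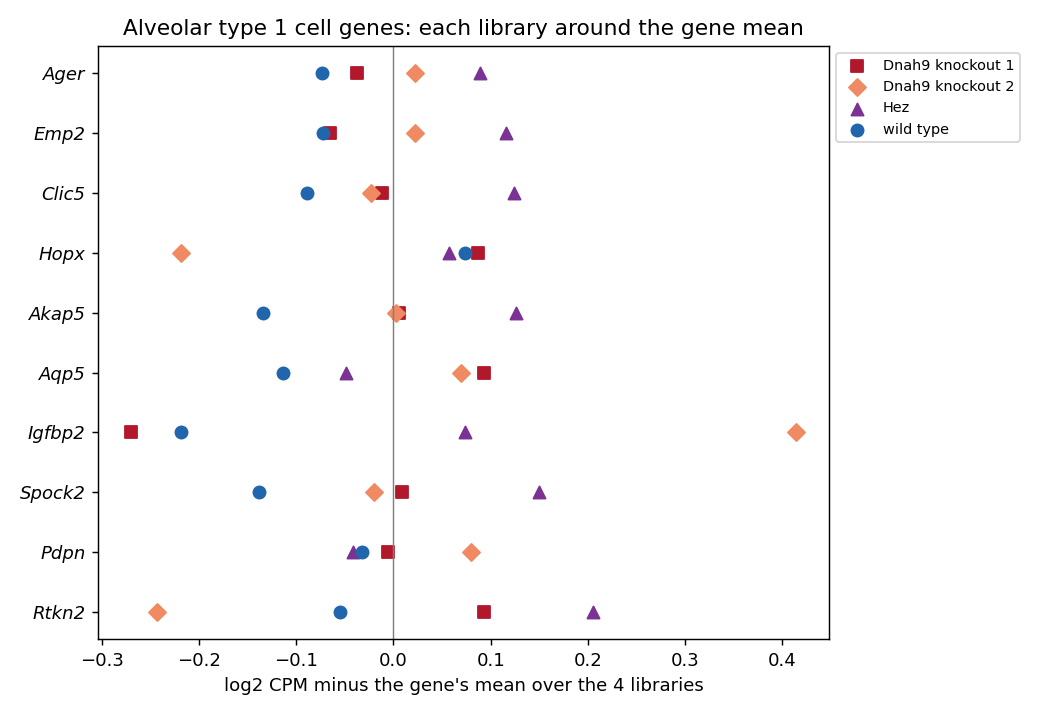
Log2 CPM of each gene in each library minus the gene's mean over the 4 libraries (horizontal axis), with genes ordered by mean FPKM from the top. Hez lies farthest right for Ager, Emp2, Clic5, Akap5, Spock2 and Rtkn2, and knockout library 2 stands apart for Hopx, Rtkn2 and Igfbp2.

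The sequences before the transcription start are shown for Ager, Clic5, Emp2 and Akap5, 4 of the 5 members with Hez highest and wild type lowest. Igfbp2 is shown too, as the member farthest from the members' mean profile over the libraries (Euclidean distance of log2 CPM deviations 0.498). The sequences are the 250 bases before the start in RefSeq on GRCm38.p6, a build other than that of the expression table. They overlap no exon annotated in GENCODE M21. Capitals mark GGGCGG or its complement CCGCCC, the GC box.
Ager, chr17:34597600-34597849, plus strand: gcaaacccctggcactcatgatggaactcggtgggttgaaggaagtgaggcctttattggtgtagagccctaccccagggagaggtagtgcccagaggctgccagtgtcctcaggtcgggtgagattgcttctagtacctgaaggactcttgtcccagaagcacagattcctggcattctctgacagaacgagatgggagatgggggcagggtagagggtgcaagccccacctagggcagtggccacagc
Clic5, chr17:44188322-44188571, plus strand: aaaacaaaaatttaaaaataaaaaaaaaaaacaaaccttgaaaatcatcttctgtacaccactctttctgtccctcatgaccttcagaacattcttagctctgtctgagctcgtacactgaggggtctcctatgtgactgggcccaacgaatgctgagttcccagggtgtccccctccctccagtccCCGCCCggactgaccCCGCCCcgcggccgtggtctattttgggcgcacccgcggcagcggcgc
Emp2, chr16:10313969-10314218, minus strand: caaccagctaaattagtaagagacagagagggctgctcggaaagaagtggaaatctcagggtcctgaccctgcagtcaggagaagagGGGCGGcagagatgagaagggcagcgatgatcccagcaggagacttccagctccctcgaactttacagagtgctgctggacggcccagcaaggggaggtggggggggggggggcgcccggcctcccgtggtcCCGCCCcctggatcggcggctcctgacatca
Akap5, chr12:76324641-76324890, plus strand: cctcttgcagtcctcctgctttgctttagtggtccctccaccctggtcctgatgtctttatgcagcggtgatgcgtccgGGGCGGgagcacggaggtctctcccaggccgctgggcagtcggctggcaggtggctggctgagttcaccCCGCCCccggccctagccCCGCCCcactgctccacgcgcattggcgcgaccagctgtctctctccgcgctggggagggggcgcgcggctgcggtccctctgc
Igfbp2, chr1:72824230-72824479, plus strand: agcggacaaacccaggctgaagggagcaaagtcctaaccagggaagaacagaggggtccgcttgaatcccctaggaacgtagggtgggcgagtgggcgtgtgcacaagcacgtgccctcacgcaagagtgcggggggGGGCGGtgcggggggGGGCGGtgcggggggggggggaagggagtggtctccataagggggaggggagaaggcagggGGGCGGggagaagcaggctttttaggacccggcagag

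Ager had no GC box here, 3 CpG dinucleotides and a GC content of 57.6%, while Clic5, Emp2 and Akap5 had 13, 11 and 20 CpG dinucleotides and Igfbp2 had 14. Over all 32851 RefSeq windows the median was 6 CpG dinucleotides with a GC content of 52.4%, and 32.7% held a GC box. Spock2 had the same order of libraries, but its stretch overlaps annotated Spock2 exons and is not printed. It had 7 CpG dinucleotides, a GC content of 51.2% and no GC box. The 5 genes with that order thus differed among themselves in the composition of this stretch. RefSeq windows from 250 bases before to 50 after a start were at hand for 9 of 10 members, with 11 starts, and none for Rtkn2. Searched on both strands, the NKX2-1 core CAAGTG was in 2 of 11 windows (Hopx and Spock2, both after the start), against 13.6% of all windows. The TEAD core GGAATG was in 0 of 11, against 14.7%. TGANTCA, the AP-1 motif, was in 1 of 11, against 7.81%, at an Igfbp2 start other than the one printed above. The TATA box TATAAA was in 0 of 11, against 13.6%, and the GC box, added to the search after these results were seen, was in 6 of 11, against 35.7%. No 2 of these matches overlapped. A match is a description of letters and not a binding site.

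Other genes enriched in type 1 cells were read from a list of 29, of which 29 were tested. None passed in edgeR for knockout against wild type or against Hez, with 0 and 4 of 29 at an unadjusted p below 0.05, against 5.18% and 4.61% of all tested genes. Against wild type 19 were above 0 and 10 below, with a median of 0.03. The 3 with the smallest p were Gramd2 at -0.24 (SE 0.128), the tight junction gene Cldn18 at 0.13 (SE 0.0801) and the caveolae gene Cav1 at 0.14 (SE 0.0914), which endothelium also expresses. Hez lay above wild type for 23 of 29 (49.5% of all tested genes did), with a median log2 difference of 0.09. Hez was the highest library for 13 of 29, against 23.9% of all tested genes. Wild type was the lowest for 9 of 29, against 24.2%. Col4a3 and Col4a4, chains of the basement membrane collagen that type 1 cells make, were chosen after their values were seen. Col4a4 had 291 and 295 CPM in the knockout libraries, 373 in Hez and 296 in wild type, and Col4a3 had 348 and 357, 424 and 362 CPM in the same order. For both, Hez was the highest and the other 3 libraries were close together, with adjusted p = 0.717 and adjusted p = 0.892 for knockout against Hez in edgeR.

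Genes of the pathways in which the members work did not pass in edgeR in any list for either comparison. Against wild type 1 or 2 genes per list had an unadjusted p below 0.05 in edgeR, where 5.18% of all tested genes had one. Against Hez 0 to 3 genes per list did, where 4.61% of all tested genes did. The lists had 8 to 19 tested genes. For ion and water transport across the alveolar wall (12 tested), 7 were above 0 and 5 below in knockout against wild type, with a median of 0.03, and the smallest p values went in both directions. The phosphate transporter gene Slc34a2, also a type 2 cell marker, stood at 0.20 (SE 0.069, adjusted p = 0.784) and the water channel gene Aqp4 at -0.51 (SE 0.181, adjusted p = 0.814). Among 17 basement membrane genes 6 were above 0, with a median of -0.02, and Col4a6 stood at -0.49 (SE 0.117, adjusted p = 0.445). Of 19 regulators of alveolar cell fate and genes of the Hippo pathway, which acts through Yap1 and Wwtr1 in type 1 cells, 12 were above 0, with a median of 0.06. Etv5, a transcription factor of type 2 cells, stood at 0.34 (SE 0.0969, adjusted p = 0.612), and Ccn1, a target of Yap1, had 78.9 and 308 CPM in the knockout libraries, 132 in Hez and 75.3 in wild type, so knockout library 2 stood apart.

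In knockout against wild type, RAGE ligands and signalling genes (10 tested) were split evenly, with a median of -0.04. Rela, a subunit of NF-kappaB, stood at 0.34 (SE 0.101, adjusted p = 0.632 in edgeR). Ezrin family proteins and podoplanin partners (8 tested) had a median of 0.01, with the hyaluronan receptor gene Cd44 at 0.23 (SE 0.0983, adjusted p = 0.947). In the insulin-like growth factor axis (10 tested) the median was 0.04, with Igfbp5 at -0.39 (SE 0.106, adjusted p = 0.566). Family relatives of the members (14 tested) had a median of 0.04. Among them were Clic6 at -0.43 (SE 0.119, adjusted p = 0.582) and Emp3 at 0.20 (SE 0.15). Against Hez the medians of these lists, in the same order, were 0.11, -0.13, -0.02 and 0.09. There 9 of 10 RAGE genes lay above 0, and 6 of 8 genes of the ezrin and podoplanin list lay below 0.

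Markers of type 2 cells, the source of new type 1 cells, are given beside the type 1 genes as a description. All 15 type 2 markers were above 0 in knockout against wild type (51.1% of all tested genes were), with a median of 0.22. In edgeR 0 passed, and 9 of 15 had an unadjusted p below 0.05 (5.18% of all tested genes did), such as the surfactant gene Sftpc (0.18, SE 0.0444, adjusted p = 0.449). Summed over each list, type 1 members stood at 14.7% and 16.1% of the type 2 markers in the knockout libraries, 18.7% in Hez and 16.7% in wild type. The type 2 sum was 41463 and 38600 CPM in the knockout libraries, 35557 in Hez and 34853 in wild type, and the type 1 sum was 6078 and 6196, 6648 and 5823 CPM in the same order. Against wild type, both sums were thus higher in both knockout libraries, and the lower ratio came with the larger difference in the type 2 sum. The ratio is given with no test, since the smallest two-sided p of an exact permutation test with 2 libraries against 2 is 0.333. Markers of the transitional state between the 2 cell types (12 tested) had a median of 0.04 with 0 called in edgeR and 1 at an unadjusted p below 0.05. Among them Krt8, a keratin of that state, had 128 and 132 CPM in the knockout libraries, 105 in Hez and 146 in wild type.

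Markers of other cells give the tissue background of these values. Capillary endothelial markers, whose cells lie against type 1 cells, were above 0 in 12 of 12 against wild type (51.1% of all tested genes were), with a median of 0.13, and Hez too lay above wild type for 12 of 12 (49.5% of all tested genes did), with 0 called in edgeR for knockout against wild type and 3 at an unadjusted p below 0.05 (5.18% of all tested genes had one). Lymphatic markers (7 tested) had a median of 0.10, alveolar macrophage markers (9 tested) of 0.17 and fibroblast markers (10 tested) of -0.12, with 0 called in each and 1, 1 and 2 at an unadjusted p below 0.05. Mesothelial markers (8 tested) had a median of -0.38, cardiac markers (11 tested) of -0.54, smooth muscle markers (7 tested) of -0.78, ciliated cell markers (10 tested) of -0.51 and submucosal gland markers (5 tested) of -0.79. None of these was called in edgeR, with 1, 10, 6, 9 and 4 at an unadjusted p below 0.05 in that order. Basal cell markers (3 tested) had a median of -0.49 with 0 called and 0 at an unadjusted p below 0.05. Club cell markers (10 tested) had a median of -0.37, and 3 of 10 fell past the threshold in edgeR (Scgb3a1, Scgb3a2 and Bpifa1), where 0.0399% of all tested genes were called lower. Hez too lay below wild type for Scgb3a1, Scgb3a2 and Bpifa1, at 189, 318 and 260 CPM against 522, 649 and 611 CPM. For knockout against Hez the medians were -0.09 for club cell, 0.05 for ciliated cell, 0.37 for smooth muscle and 0.49 for submucosal gland markers. They were -0.60 for cardiac and -0.79 for mesothelial markers. The medians against wild type rest on 1 wild-type library. The part of these cell types in the type 1 values was not tested.

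**Figure D4:**
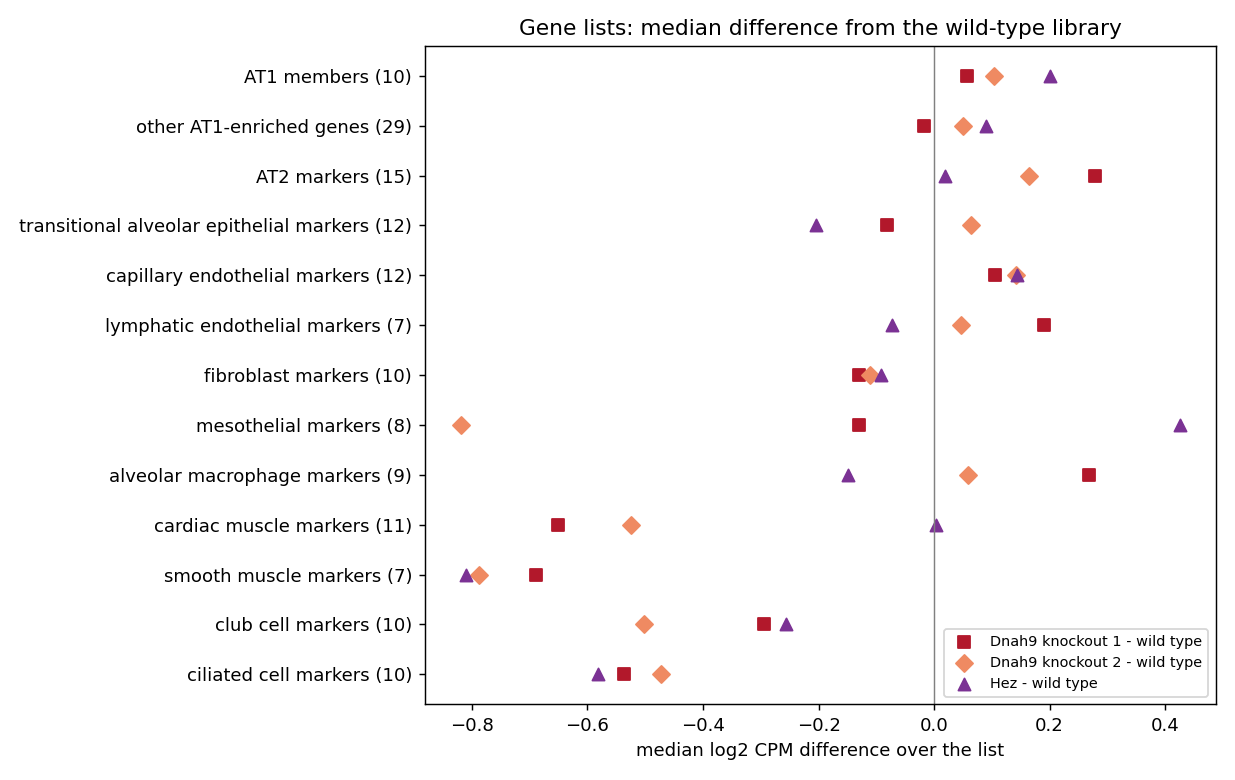
Median log2 CPM difference from the wild-type library over each gene list (number of tested genes in brackets), for Dnah9 knockout libraries 1 and 2 and for Hez. The type 1 members lie at 0.06 and 0.10 in the knockout libraries and 0.20 in Hez, while the club cell, ciliated cell and smooth muscle lists lie below 0 in all 3 libraries.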

How the data were processed

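Lung RNA was sequenced on an Illumina instrument from TruSeq libraries, per the labels' protocols. Raw counts of reads per gene were deposited in 1 table, per the file headers, beside FPKM values that the authors computed. The FPKM equal count over gene length and library total for 66024 of 66024 values above 0 (relative tolerance 1e-06). The build is GRCm39, per the submitters' processing notes. An aligner, counter, annotation release or strand setting was looked for and not given in the sources used here.

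Groups follow the genotype labels. Counts were filtered with filterByExpr (minimum count 10), scaled by TMM and tested with edgeR 4.0.16 (R 4.3.3), two-sided, over 15055 genes: 3 groups with 1 residual degree of freedom, or 2 groups (wild type and Hez together) with 2, and 7.02 and 5.99 prior degrees of freedom. P-values were adjusted by Benjamini-Hochberg. Intervals of folds are 95% and assume, against Hez or wild type alone, that it varies as the knockout pair does. Hez against wild type used log2 CPM with a prior count of 2. The scripts were tested on simulated data. Counts of any 2 libraries differed beyond counting noise (chi-square per gene 8.23 to 12.1). The value was 10.3 between the knockout libraries. Knockout library 2 gave 11.1 with Hez and 12.1 with wild type, while knockout library 1 gave 8.23 and 8.68. Hez and wild type gave 8.33. Knockout library 1 was thus nearer to Hez and wild type than to knockout library 2 by this measure.

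The 10 members and the 22 gene lists, and the promoter motifs, were chosen with earlier results of these data known. Of each list up to 3 genes with the smallest p for knockout against wild type were eligible to be named, with exceptions marked. Alternatives were other scalings, filters, DESeq2 1.42.0, limma-voom, limma 3.58.1 on log2 FPKM (pseudocount 0.5, 0.1 or 1, mean FPKM of at least 1), and each library left out.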

Additional observations from a re-analysis of the deposited data

How the results depend on the processing

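No member passed the threshold under any alternative run (edgeR with other scalings or filters, DESeq2, limma-voom, limma on FPKM, libraries left out). The lowest adjusted p of any member was 0.135, without knockout library 1 and with wild type and Hez as 1 group. The median of the members for knockout against wild type was 0.071 and came to 0.059 with library totals only, 0.058 with the stricter filter, and 0.058, 0.059 and 0.058 with FPKM at pseudocounts of 0.5, 0.1 and 1. Leaving out 1 library moved it between 0.056 and 0.10. Against Hez the range was -0.12 to -0.11, and against both together -0.12 (without wild type) to 0.071 (without Hez). Without wild type the last comparison is that against Hez alone, and without Hez that against wild type alone. Those ends thus repeat the single comparisons.

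Of 270 single-gene values under alternatives that keep all libraries, 8 changed sign, all near 0. Igfbp2 against Hez (0.04) came to -0.0030 with limma-voom and to -0.0029, -0.0031 and -0.0026 with FPKM at the pseudocounts in the order above. Akap5 against both together (0.0026) came to -0.00031 with DESeq2 size factors, -0.0038 with library totals, -0.0037 with the stricter filter and -0.00032 with DESeq2. With 1 library left out, Hopx ranged from -0.29 to 0.013 against wild type and from -0.28 to 0.029 against Hez, Rtkn2 from -0.19 to 0.15 against wild type, and Igfbp2 from -0.052 to 0.63 and from -0.34 to 0.33. Against both together the ranges were -0.10 to 0.066 (Ager), -0.13 to 0.14 (Akap5), -0.14 to 0.072 (Clic5), -0.14 to 0.052 (Emp2), -0.16 to 0.13 (Spock2), -0.29 to 0.021 (Hopx), -0.33 to 0.011 (Rtkn2) and -0.21 to 0.48 (Igfbp2). These ranges include the runs without wild type and without Hez, which repeat the comparisons with Hez alone and wild type alone. Without a knockout library, the comparisons with a single library had no residual degrees of freedom left, and those values have no test.

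Over all genes the 8 calls against wild type were 14 with DESeq2, 4 with no filter or the stricter one and 1 with FPKM. The 1 call against Hez was 7 with DESeq2 and 0 with FPKM at pseudocounts of 0.5 and 0.1. The 2 calls against both together were 23 with DESeq2, 1 with limma-voom or the stricter filter, 1, 1 and 0 with FPKM at the same pseudocounts, and 1 to 107 with a library left out (107 without knockout library 1, 24 without knockout library 2, 8 without Hez, 1 without wild type). The cause was not tested. No paired analysis was possible because the labels give no replicate numbers, and the wild-type and Hez groups hold 1 library each.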

Other observations

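The genes whose profile over the 4 libraries lay closest to the mean profile of the members, by Euclidean distance of log2 CPM deviations among 10599 genes at a mean of 10 CPM or more, were Ubn1, Src, Mapre2, Cdh5 and Kif3b, at distances of 0.0087 to 0.0152. Cdh5, the cadherin of endothelial junctions, had 1188 and 1195 CPM in the knockout libraries, 1273 in Hez and 1120 in wild type. Among the members Ager lay closest to their mean profile, at 0.0324, with 44 of these genes closer, and Igfbp2 farthest, at 0.498, with 9915 closer. Clic5, Emp2, Akap5 and Spock2 had 165 to 878 genes closer. Pdpn, Aqp5, Hopx and Rtkn2 had 3367 to 8103 closer, so the mean profile does not describe every member. With 4 libraries and a narrow range of levels, such nearness is a description of these libraries.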
